A study of Bos taurus with 8 samples.

Results

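Levels of 8 genes that mark theca cells or the stroma around the follicle were examined in bovine granulosa cells: CYP17A1, INSL3, LUM, DCN, PTCH1, GLI1, HHIP and NR2F2. They were read through every array probe that the platform annotation gives 1 of these symbols, chosen by symbol alone. This found 12 probes for the 8 genes among 43794 probes and 15229 symbols. PTCH1 and NR2F2 had 3 probes each and the other genes had 1. The cells were mural granulosa cells scraped from individual dominant follicles over 9 mm in ovaries of Holstein cattle collected at slaughter. Flow cytometry of DNA content placed each follicle in a growing or an atretic phase. The phase is therefore a property of the cell sample and not the result of a treatment, and no group received an agent. Each of 4 atretic follicles was hybridised together with a growing follicle on 2 two-colour arrays with the dyes exchanged, giving 4 pairs, 8 follicles and 16 channels. The sources used here give neither the ages of the animals nor whether each follicle had an animal of its own, so a p-value reflects only how far these follicles spread.

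The follicle wall has granulosa cells on the inside and, beyond a basement membrane, the theca, a vascular layer of steroid-producing cells, fibroblasts and vessels embedded in stroma. Theca cells turn cholesterol into androgens under luteinising hormone, and granulosa cells convert these androgens to oestradiol. Granulosa cells secrete hedgehog ligands which, in the mouse, act on PTCH1 in the neighbouring theca and stroma, where GLI1, HHIP and PTCH1 itself are raised as targets. Lumican (LUM) and decorin (DCN) are small leucine-rich proteoglycans that bind collagen fibres and are made mainly by fibroblasts. In samples meant to hold granulosa cells alone, such genes also serve as a check on other cells. CYP17A1 was used in that way in the study, which quantified it by qRT-PCR, and its primers are shown because they give the exact sequence by which theca RNA was sought; capitals mark no part of them.
CYP17A1 forward: accatcagagaagtgctccgaa
CYP17A1 reverse: ccacaacgtctgtgcctttgt

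Levels are given as log2 intensities, the mean of a follicle's 2 arrays, and a probe was counted as above background where it exceeded the 95th percentile of 153 negative control spots in that array and channel, a limit between 7.14 and 7.51. All 13 granulosa genes listed were measured, and 11 of them lay above the negative controls in all 16 channels. Signal above background does not by itself establish the cell type. Of 9 tested genes of steroid synthesis, which theca cells share, 7 met the same criterion, as did 5 of the 8 genes examined here. Between 48.4% and 72.1% of probes exceeded this limit in a channel. The median spot was 4.10 to 5.45 times its local background in Cy5 and 8.97 to 13.6 times in Cy3. The 2 arrays of a pair gave ratios that correlated at 0.624 to 0.776 across probes. Across pairs the ratios were much less alike, with correlations of 0.50 for pairs 3 and 4, 0.28 for pairs 2 and 3 and 0.23 for pairs 2 and 4, and of -0.06, -0.22 and -0.37 for pair 1 with pairs 4, 2 and 3. The dyes are stated in the labels, so the direction was kept.

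CYP17A1, LUM and DCN differed strongly between individual follicles, and those with high levels were found in both phases. INSL3 stood apart in 1 growing follicle. PTCH1 was bright in all 8 follicles, NR2F2 was low and even, and GLI1 and HHIP lay at the level of the negative controls. All 12 probes passed the filter on low values, a mean log2 intensity of at least 7, but only 5 of them, 1 each for INSL3, LUM, DCN, PTCH1 and NR2F2, were above the negative controls in all 16 channels. Over all probes tested, 37.5% were. Of the 8 genes, 0 passed a test of atretic against growing follicles. By an adjusted p under 0.05 the count was 0 of 8 beside 0 of 36294 probes, where 2324 probes had an unadjusted p under 0.05 by limma. By the study's threshold, a fold of at least 1.5 with an unadjusted p under 0.05, it was also 0 of 8, beside a background of 5.11% of the 13624 genes read by their brightest probe, or 3.51% of probes (1.81% higher and 1.71% lower in atretic follicles). With 4 pairs these counts do not show that levels were equal, and the intervals below give the differences that remain possible. In bulk samples such as these, fewer cells of a type and less RNA per cell cannot be told apart.

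**Figure D1:**
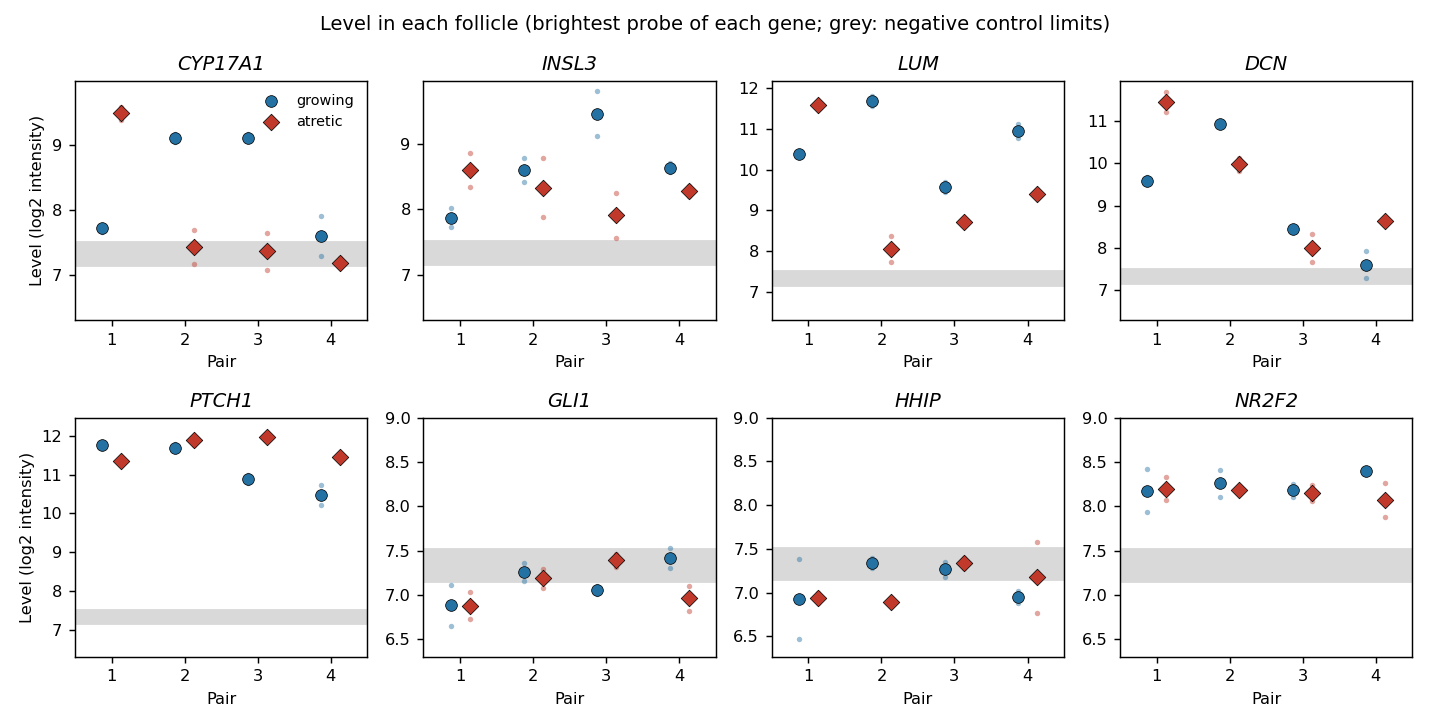
Level of each gene in each follicle, by its brightest probe, as log2 intensity (vertical axis) against pair (horizontal axis). Large circles are growing and large diamonds atretic follicles (mean of 2 arrays), small points are the single arrays, and the grey band spans the negative control limits from 7.14 to 7.51. CYP17A1 stands well above the band in 3 follicles, while GLI1 and HHIP stay within or below it in all 8.

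CYP17A1, the enzyme of androgen synthesis that sets theca cells apart from granulosa cells in the bovine follicle, was high in 3 of 8 follicles. In atretic follicles (probe EMBV3_42627) its level was 9.49 in pair 1, 7.42 in pair 2, 7.36 in pair 3 and 7.19 in pair 4. In growing follicles it was 7.72, 9.11, 9.12 and 7.60 in the same order. The high follicles were the atretic follicle of pair 1 and the growing follicles of pairs 2 and 3, and the other 5 lay at 7.72 or below. Between these 3 and the rest was a gap of 1.39. No other step between neighbours in the order exceeded 0.52, which is 2 times the SD of a difference between follicles expected from the repeat arrays. The ranges of the 2 phases overlapped.

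In 4 of the 5 low follicles CYP17A1 was measured above background in part or not at all, the growing follicle of pair 1 being the exception. The atretic follicles of pairs 2 and 3 and the growing follicle of pair 4 exceeded the negative controls on 1 of their 2 arrays and the atretic follicle of pair 4 on 0. With these limits the growing follicles of pairs 2, 3 and 4 were at least 3.01-fold, 3.17-fold and 1.14-fold higher when the negative control limit stood in for the dimmer level. In all, it exceeded the limit on 4 of 8 arrays in the atretic and on 7 of 8 in the growing phase. The log2 ratio of atretic over growing was 1.78 in pair 1, -1.69 in pair 2, -1.75 in pair 3 and -0.41 in pair 4, with the same sign on both arrays of every pair. The mean was -0.52 ± 0.65 (SE, n = 4 pairs; 95% interval -2.19 to 1.15), with an adjusted p of 0.919. Without pair 1 the mean was -1.28 ± 0.32 with an adjusted p of 0.266, which passed the study's threshold. Without pair 2 it was -0.13 and without pair 3 -0.11. Pair 1 bore on the whole array: without it 9.37% of probes passed that threshold, and so did 3 of the 8 genes (CYP17A1, LUM and PTCH1). These shares are in unlike units, since genes are read by their brightest probe. In the main fit 5.11% of genes passed against 3.51% of probes, and the gene share without pair 1 was not computed.

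INSL3, a relaxin-like peptide hormone secreted by theca cells, was above the negative controls in all 16 channels. It reached 8.61, 8.33, 7.91 and 8.29 in the atretic follicles of pairs 1 to 4 (probe EMBV3_21405). The growing follicles gave 7.87, 8.61, 9.47 and 8.64. The growing follicle of pair 3 alone stood apart, 0.83 above the next, and the other 7 followed in steps of at most 0.38, under the 0.76 expected as 2 SD from the repeat arrays. That follicle was also among the 3 high in CYP17A1, whereas the other two were unremarkable in INSL3 with 8.61 each. The ratios of the pairs were 0.74, -0.27, -1.56 and -0.35, giving a mean of -0.36 ± 0.38 (95% interval -1.33 to 0.61, adjusted p = 0.903). Without pair 3 the mean was 0.04, so its sign rested on that pair. Of the relaxin family and its receptors 3 of 6 listed genes were tested and 0 passed the study's threshold. RXFP1, a relaxin receptor, exceeded the negative controls in 12 of 16 channels with a mean ratio of -0.20 ± 0.10.

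Other genes of steroid synthesis are shared by theca and granulosa cells, and their levels also ran with the individual follicle. Of 11 such genes listed, 9 were tested and 0 passed the study's threshold in either direction, with a median ratio of 0.22 beside -0.0007 over all probes. Their median ratio was 2.21 in pair 1, -0.62 in pair 2, -1.72 in pair 3 and 0.33 in pair 4, so it had the sign of CYP17A1 in pairs 1, 2 and 3. Averaged over the 9 genes, the level was 12.5 in the atretic follicle of pair 1 and 9.95 to 11.4 in the other atretic follicles, against 10.2 to 11.6 in the growing follicles, where pair 3 was highest. LHCGR, the receptor of luteinising hormone, had a ratio of 4.83 in pair 1 and of -2.45 in pair 3 (mean 1.23 ± 1.16, adjusted p = 0.895). CYP11A1, which makes the first cut in cholesterol, had ratios of 3.47, -0.71, -3.78 and -2.60 (mean -0.91 ± 1.24). SCARB1, a receptor that takes up cholesterol from lipoproteins, was 15.0 in the growing follicle of pair 2 and between 9.20 and 11.4 in the other 7. What part the steroidogenic state of a follicle had in its CYP17A1 level was not tested.

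**Figure D2:**
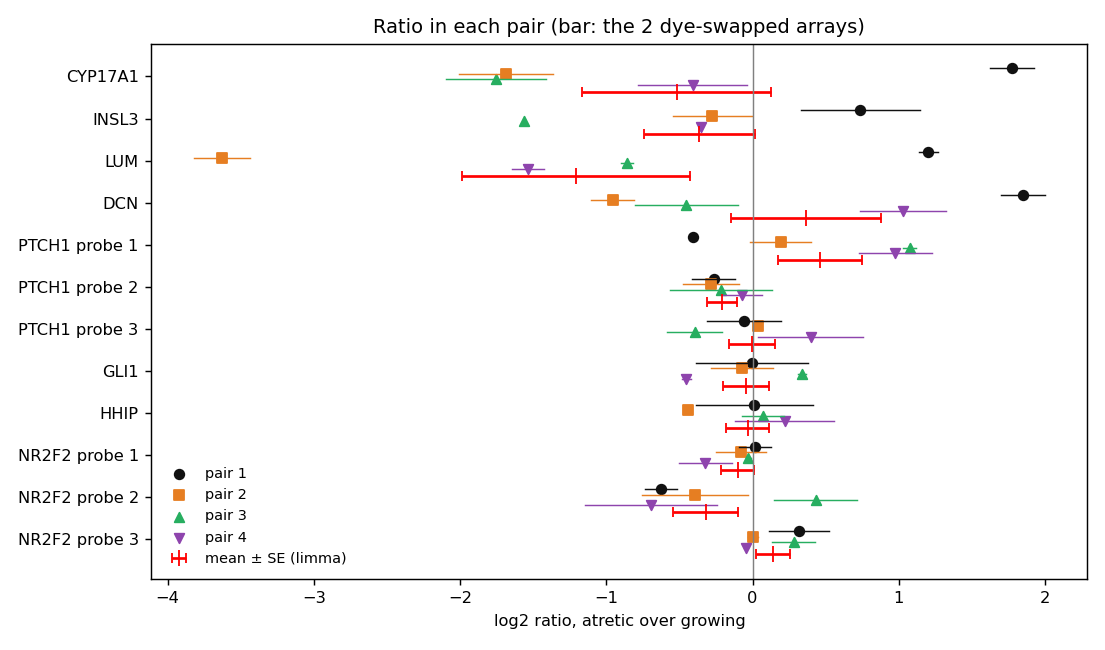
Log2 ratio of atretic over growing (horizontal axis) for the 12 probes of the 8 genes (vertical axis). Symbols are the 4 pairs, thin bars join the 2 dye-swapped arrays of a pair, and red bars give the mean ± SE over 4 pairs. Pair 1 lies at 1.78 for CYP17A1 and 1.20 for LUM where the other 3 pairs lie below 0, and at -0.41 for PTCH1 probe 1 where the others lie above 0.

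LUM and DCN varied more than most genes between follicles. LUM spanned 3.63 on the log2 scale, 12.4-fold, and DCN 3.83, 14.2-fold, beside a median span of 0.97 over the 13624 genes tested. Only 2.32% of genes spanned more than LUM and 1.78% more than DCN. Both were above the negative controls in all 16 channels, and in neither did the span separate the phases.

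Lumican (probe EMBV3_36151) was at 11.59, 8.05, 8.72 and 9.41 in the atretic follicles of pairs 1 to 4. In the growing follicles it was at 10.39, 11.68, 9.58 and 10.94. The 2 highest follicles, the growing one of pair 2 and the atretic one of pair 1, differed by 0.09, less than the repeat arrays allow, and 5 of the 7 steps in the order exceeded 2 SD of that spread (0.42). The 3 lowest follicles were all atretic, and the fourth atretic follicle was the second highest of all 8. The pair ratios were 1.20, -3.63, -0.86 and -1.53, a growing follicle 12.4-fold higher in pair 2 and an atretic one 2.30-fold higher in pair 1. Their mean was -1.21 ± 0.78 (95% interval -3.21 to 0.80, adjusted p = 0.856). When the 8 arrays entered the fit with the pair as a block, the same mean passed the study's threshold (unadjusted p = 0.0429, adjusted p = 0.460), as did 6.17% of all probes. It also did so without pair 1, at -2.01 ± 0.58 (adjusted p = 0.311). Without pair 2 the mean was -0.40 ± 0.59, with neither threshold passed.

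Decorin (probe EMBV3_17174) was at 11.44, 9.97, 8.01 and 8.64 in the atretic follicles. The growing follicles were at 9.59, 10.93, 8.46 and 7.61. Here the 4 follicles of pairs 1 and 2 all lay above the 4 follicles of pairs 3 and 4, whatever their phase, with a step of 0.95 between them. A second step of 0.96 set the atretic follicle of pair 1 and the growing follicle of pair 2 above the rest, and no other step exceeded the 0.55 expected as 2 SD from the repeat arrays. The 2 follicles of a pair share their arrays, so pair and array cannot be told apart in this order. The ratios were 1.85, -0.96, -0.45 and 1.03, with a mean of 0.37 ± 0.51 (95% interval -0.95 to 1.69, adjusted p = 0.926). Leaving out pair 1 turned the mean to -0.13.

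LUM and DCN are next to each other on bovine chromosome 5 in the RefSeq table of assembly ARS-UCD2.0, with 0 protein-coding genes between them, and KERA and EPYC, proteoglycans of the same family, follow on the side of LUM. The probes of KERA and EPYC did not pass the intensity filter. The ratios of LUM and DCN had the same sign in pairs 1 to 3 and opposite signs in pair 4, where the growing follicle had 10.94 of LUM and 7.61 of DCN.

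Of the 13 other leucine-rich proteoglycans listed, 10 were tested, and 0 passed the study's threshold in either direction. Their mean ratio was above 0 for 8 and below 0 for 2, with a median of 0.48 beside 0.01 over all genes. FMOD (fibromodulin), which binds collagen beside lumican, followed LUM in outline. Its atretic follicles were at 11.20, 7.44, 8.55 and 9.20, and its growing follicles at 8.23, 12.81, 8.99 and 8.27. Its ratios were 2.97, -5.37, -0.44 and 0.93 (mean -0.48 ± 1.38, adjusted p = 0.968), so the same follicles of pairs 1 and 2 were highest as for LUM and DCN. The atretic follicle of pair 2 exceeded the negative controls on 1 of 2 arrays, which bounds that difference at 40.6-fold or more. ASPN (asporin) ran the other way in pair 1, with ratios of -1.03, 1.69, 1.72 and 3.10 (mean 1.37 ± 0.68, adjusted p = 0.832), the last at least 6.55-fold by the same bound. OGN (osteoglycin), above background in 10 of 16 channels, had a mean of 0.81 ± 0.54, BGN (biglycan) of 0.61 ± 0.37, ECM2 of 0.61 ± 0.29 and CHAD (chondroadherin) of 0.55 ± 0.23. PODN (podocan) had an unadjusted p of 0.0424 at 0.41 ± 0.15, with a fold under 1.5, an adjusted p of 0.774 and a level above the negative controls in 4 of 16 channels. Averaged over the 10 genes, the level was 8.06 to 8.55 in the atretic and 7.49 to 8.13 in the growing follicles, which overlapped.

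Of 20 further mesenchymal and stromal markers, 19 were tested and 0 passed the study's threshold, with a median ratio of 0.04. Their average level was 8.11 to 8.22 in the atretic and 7.84 to 8.47 in the growing follicles, and was highest in the growing follicle of pair 2. POSTN (periostin), a matrix protein of fibroblasts, was at 11.59 in that follicle and between 7.58 and 8.20 in the other 7. FBLN1 (fibulin 1), a gene chosen after its values were seen, had ratios of 2.61, -0.40 and 0.91 in pairs 1, 3 and 4. In pair 2, where the atretic follicle was above background on 1 of 2 arrays, the growing one was at least 12.8-fold higher. It was highest in the same 2 follicles as LUM, DCN and FMOD, which did not hold for every stromal gene. OGN and ALDH1A1 were highest in the atretic follicle of pair 1 (8.87 and 9.83). In the growing follicle of pair 2 neither was above background on either array (6.70 and 6.53), and the same held for that of pair 1 (6.76 and 6.71). PDGFRA, a growth factor receptor of stromal cells, had a mean ratio of 0.73 ± 0.58 and was brightest in pair 2, at 11.73 for atretic and 11.60 for growing. ALDH1A1, a retinoic acid enzyme, had a mean of 1.36 ± 0.77. Its growing follicles of pairs 1 and 2 were not above background on either array, so the atretic follicles of these pairs were at least 5.54-fold and 1.51-fold higher, and the ratios of pairs 3 and 4 were -1.39 and 2.30, the last against a growing follicle above background on 1 of 2 arrays.

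**Figure D3:**
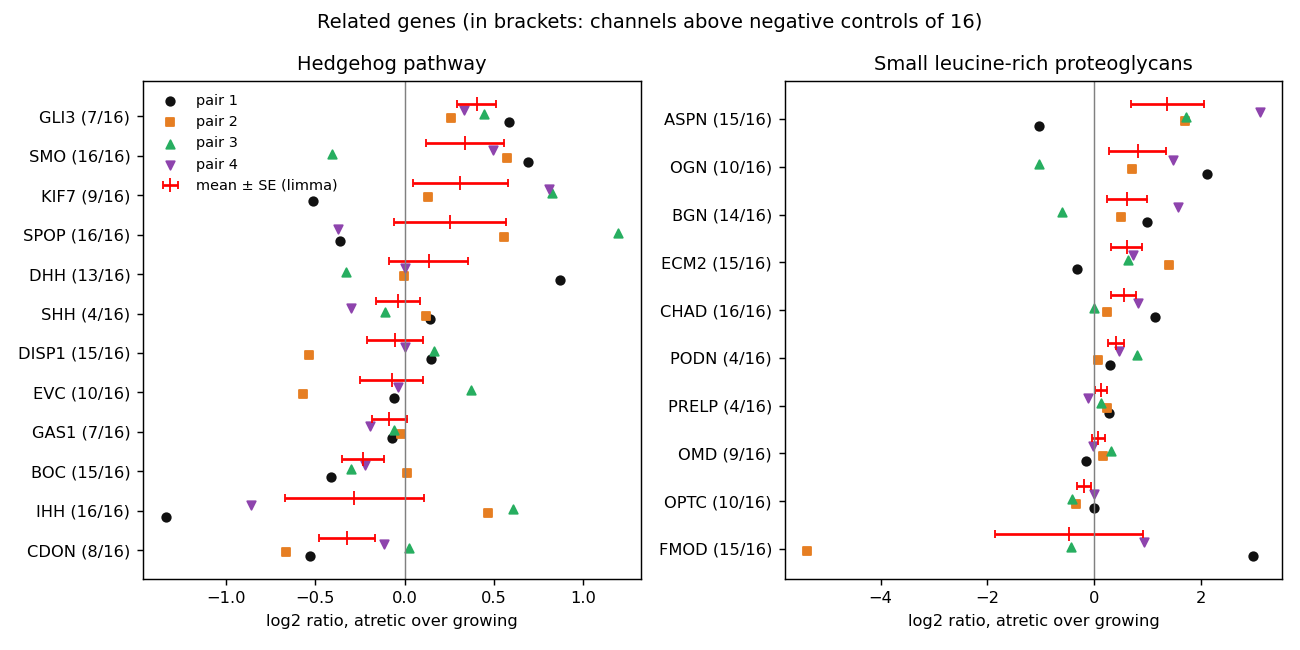
Log2 ratio of atretic over growing (horizontal axis) for the tested genes of the hedgehog pathway (left) and of the small leucine-rich proteoglycans (right), in order of the mean. Symbols are the 4 pairs and red bars the mean ± SE, and the number in brackets counts channels above the negative controls. FMOD has the widest spread, from -5.37 in pair 2 to 2.97 in pair 1, and GLI3 lies above 0 in 4 of 4 pairs with a mean of 0.40.

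PTCH1, the receptor that hedgehog ligands bind and that is itself a target of the pathway, was bright in all 8 follicles by probe EMBV3_18319. The atretic follicles were at 11.36, 11.89, 11.97 and 11.46, and the growing follicles at 11.77, 11.70, 10.90 and 10.48. The 2 lowest were the growing follicles of pairs 3 and 4, below the other 6 by 0.46, and a further step of 0.42 divided them. The other 6 followed in steps of at most 0.24, under the 0.33 expected as 2 SD from the repeat arrays. Ratios were -0.41, 0.19, 1.08 and 0.98, where the 2 arrays of pair 2 had opposite signs. The mean was 0.46 ± 0.29 (95% interval -0.28 to 1.20, adjusted p = 0.854). Without pair 1 it was 0.75 ± 0.23 with an adjusted p of 0.325, which passed the study's threshold. It was 0.25 without pair 3 and 0.29 without pair 4, and the mean over all 3 probes was 0.08 ± 0.15.

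The other 2 probes of PTCH1 did not follow the first. EMBV3_32580 lay close to the negative controls, between 7.39 and 7.85, with 14 of 16 channels above them, and was lower in atretic follicles in 4 of 4 pairs, by 0.07 to 0.28. Its mean was -0.21 ± 0.10 (95% interval -0.47 to 0.05, adjusted p = 0.825), opposite in sign to the bright probe. EMBV3_09209, with 13 of 16 channels above the negative controls, had a mean of -0.004 ± 0.16. The direction of PTCH1 thus depended on the probe, and the files do not say which transcript each probe reads.

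GLI1, the transcription factor whose own gene responds to hedgehog signalling, was not measurable in most follicles. It exceeded the negative controls in 5 of 16 channels (probe EMBV3_43543), with levels from 6.88 to 7.39 in the atretic and 6.88 to 7.41 in the growing follicles. HHIP, a membrane protein that captures hedgehog ligands and is another target, also exceeded them in 5 of 16 channels (probe EMBV3_29761), at 6.90 to 7.34 and 6.92 to 7.33. For neither gene did any step between follicles exceed the repeat spread. The fitted ratios were -0.05 ± 0.16 for GLI1 and -0.03 ± 0.15 for HHIP, values without a direction at this signal. Neither level shows that the transcript was absent.

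Among 18 other hedgehog pathway genes listed, 12 were tested and 0 passed the study's threshold, with 5 means above and 7 below 0 and a median of -0.05. IHH (Indian hedgehog), a ligand made by granulosa cells, was clearly measured in all 16 channels. Its level was 9.57, 10.64, 11.24 and 8.82 in the atretic and 10.90, 10.17, 10.64 and 9.67 in the growing follicles. The ratios of -1.34, 0.47, 0.61 and -0.86 gave a mean of -0.28 ± 0.39 (adjusted p = 0.926), and the phases overlapped. DHH (desert hedgehog), the other ovarian ligand, was dimmer, at 7.26 to 8.13. It exceeded the negative controls in 13 of 16 channels, with a mean ratio of 0.14 ± 0.22.

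SMO, the protein that PTCH1 holds inactive, was above the negative controls in all 16 channels, with a mean ratio of 0.34 ± 0.22. GLI3, a transcription factor that mostly represses hedgehog targets, was higher in atretic follicles in 4 of 4 pairs, by 0.26 to 0.58. Its mean of 0.40 ± 0.11 had an unadjusted p of 0.0141 and an adjusted p of 0.716, the fold stayed under 1.5, and only 7 of 16 channels exceeded the negative controls. GLI2 and SUFU, 2 further parts of the pathway inside the cell, did not pass the intensity filter. The levels of these genes, averaged over the 12, ran from 8.04 to 8.32 in the atretic and from 8.08 to 8.31 in the growing follicles.

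NR2F2, a nuclear receptor of mesenchymal cells of the theca and stroma, was low and varied little. By its brightest probe (EMBV3_26152) it was above the negative controls in all 16 channels, at 8.20, 8.18, 8.15 and 8.07 in the atretic and 8.18, 8.26, 8.18 and 8.40 in the growing follicles. The whole span was 1.25-fold, which 96.1% of genes exceeded. No step in the order exceeded the repeat spread. The mean ratio was -0.10 ± 0.11 (95% interval -0.39 to 0.18, adjusted p = 0.907). EMBV3_16284 was above the negative controls in 12 of 16 channels with a mean of -0.32 ± 0.22, and EMBV3_27407 in 3 of 16 with 0.14 ± 0.12. The 3 highest follicles by the brightest probe were the growing ones of pairs 4 (8.40) and 2 (8.26) and the atretic one of pair 1 (8.20). The same 3 were highest in LUM, but in NR2F2 they did not stand apart from the rest beyond the repeat spread.

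**Figure D4:**
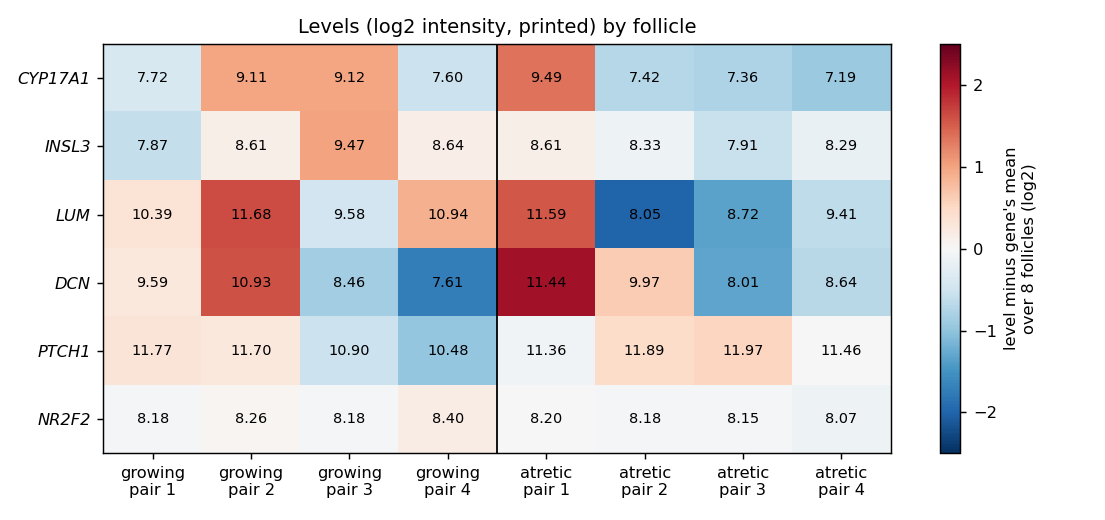
Level of 6 genes (rows) in the 4 growing and 4 atretic follicles (columns), printed as log2 intensity and coloured by the difference from that gene's mean over the 8 follicles. The growing follicle of pair 2 and the atretic follicle of pair 1 are high in CYP17A1, LUM and DCN, the growing follicle of pair 3 is high in CYP17A1 (9.12) and INSL3 (9.47) but not in LUM (9.58) or DCN (8.46), and NR2F2 hardly varies.

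Set side by side, the follicles fell into no single order. The growing follicle of pair 2 and the atretic follicle of pair 1 were the 2 highest in both LUM and DCN, and were among the 3 highest in CYP17A1. The growing follicle of pair 3 was high in CYP17A1 and highest in INSL3, but 4 other follicles lay above it in LUM and 5 in DCN. The growing follicle of pair 4 was lowest in DCN and PTCH1, while only 2 follicles had more LUM. Over the 8 follicles CYP17A1 correlated with INSL3 at r = 0.65 (rho = 0.57), with LUM at 0.64 (rho = 0.69) and with DCN at 0.61 (rho = 0.48). After leaving out the 2 follicles farthest from the median of CYP17A1, these were 0.46, 0.74 and 0.70. LUM and DCN correlated at 0.45 (rho = 0.36), and INSL3 and DCN at -0.006. Read by its bright probe alone, which its other 2 probes did not follow, PTCH1 ran against INSL3 at -0.68 (rho = -0.81). Without the 2 follicles farthest from the median of INSL3 this was -0.63. These are 10 correlations in all, given as descriptions, since 2 follicles share each array and n is 8.

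The genes most like each of these in level over the 8 follicles were sought among 11094 genes, and the 3 nearest are given. The 8 genes examined here were left out of that search beforehand, so they could not appear. For CYP17A1 they were PRSS2 (r = 0.948), PRR5 (0.935) and CHCHD10 (0.934). APOA1BP (0.958), HMG20B (0.947) and USP4 (0.938) were nearest to INSL3. For LUM they were AHI1 (0.969), RDH11 (0.927) and PDS5A (0.925). SPG7 (0.957), MESDC1 (0.916) and PDGFA (0.908), the last a ligand of PDGFRA, were nearest to DCN, and WDR44 (0.979), DHRSX (0.971) and CTNND1 (0.968) to PTCH1. With so many genes and 8 follicles, correlations of this size are the highest of a long list and were not tested.

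Markers of other cells in the follicle wall were read in the same way. Of 10 tested smooth muscle and pericyte genes, 10 endothelial, 9 leukocyte, 5 erythrocyte and 7 oocyte genes, 0 passed the study's threshold in either direction. Average levels in atretic and growing follicles were 8.88 to 9.31 and 8.52 to 9.26 for smooth muscle, 7.32 to 7.78 and 7.23 to 7.89 for endothelium, and 7.29 to 7.97 and 7.26 to 7.68 for leukocytes. KDR, an endothelial receptor for VEGF, was at 6.80, 9.55, 9.36 and 7.51 in the atretic and 10.41, 11.03, 7.11 and 6.65 in the growing follicles, so it was high in follicles with much and with little LUM. PECAM1, another endothelial gene, did not pass the intensity filter. Of the 10 tested endothelial genes, 8 exceeded the negative controls in at least 8 of 16 channels and 0 in all 16. The 9 tested leukocyte genes had a median ratio of 0.03, with 6 means above and 3 below 0. Those named here are the 3 of largest mean ratio, in either direction, with at least 8 of 16 channels above the negative controls. Their mean ratios were 0.76 ± 0.37 for CD68, 0.68 ± 0.31 for TYROBP and -0.35 ± 0.20 for PTPRC, found on all leukocytes. CD68 and TYROBP had their largest ratios in pairs 2 and 3. In pair 1 they were at -0.21 and 0.21, and in pair 4 at 0.18 and 0.004. MYH11, the smooth muscle myosin, had ratios of -3.76, 4.68, 4.28 and 2.02, opposite in sign to those of CYP17A1 in 4 of 4 pairs. ACTG2, of the same list, was also opposite in 4 of 4, at -0.65, 0.99, 0.03 and 0.68. CSPG4, of this list too, had the sign of CYP17A1 in 4 of 4 pairs, at 1.34, -0.05, -1.84 and -0.71. The list thus had no common direction against CYP17A1. In erythrocyte and oocyte genes the averages stayed between 7.14 and 7.57, near the negative control limits. Single genes exceeded these limits in 3 to 14 of 16 channels for erythrocyte and in 4 to 12 for oocyte genes. Of the 13 granulosa genes 1, AMHR2, passed the study's threshold, at 1.61 ± 0.50 (adjusted p = 0.759), beside 5.11% of all 13624 genes. The average granulosa level was 12.6 in the growing follicle of pair 3 and 12.5 in the atretic follicle of pair 1, both high in CYP17A1. It was nearly as high in pair 4, at 12.3 in the growing and 12.1 in the atretic follicle, both low in CYP17A1 (7.60 and 7.19). The lowest average, 10.3, was in the growing follicle of pair 2, which was also high in CYP17A1. What part other cells had in the levels of the 8 genes was not tested.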

How the data were processed

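The 8 two-colour arrays of a bovine design lay on 3 slides. One orientation, atretic in Cy5, filled 1 slide with 4 arrays, and its exchange the other two, so dye and slide cannot be told apart in single arrays. A dye effect cancels in the mean of a pair. RNA was amplified linearly before labelling, which can favour 3′ ends. The authors deposited intensities, median pixel values of each spot and its local background, on a linear scale and without normalisation. They also deposited log2 ratios (Cy5 over Cy3), made by subtracting background and normalising with loess and quantiles. These correlated at 0.9986 to 0.9999 with ratios rebuilt here from the intensities, with medians from -0.024 to -0.010, and served as an alternative.

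Intensities were corrected with normexp (offset 50), then normalised by loess within and quantiles between arrays. The 1426 control spots of 45220 were left out, and 4 to 50 spots per array ignored by the image software were missing. Ratios were turned to read atretic over growing, and dye-swapped arrays, which share their RNA extracts, were averaged to n = 4 pairs. Samples with the same number deviated together (correlations of 0.67 to 0.90). Probes averaging a log2 intensity of 7 or more, 36294 of 43794, entered a two-sided limma test of the ratio against 0 (limma 3.58.1, R 4.3.3), and p-values were adjusted over all of them by Benjamini-Hochberg. The fit was tested on simulated data. A gene is represented by its brightest probe. The median ratio of all probes was -0.0007.

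Named genes were all probes of the 8 members, any measured gene of the hedgehog and proteoglycan lists, and of other lists those past the study's threshold and the 3 of largest mean ratio with at least 8 of 16 channels above the negative controls, together with the 3 genes most correlated with a member. Not every gene the rule allows is named, and FBLN1 and PECAM1 were named outside it after their values were seen. The members and lists were chosen with earlier results of these data known. Probes were named through the platform annotation (21790 with 1 symbol, 22004 unnamed). RefSeq gave names, chromosomes and neighbours only. Alternatives changed the background correction, normalisation, filter, variance model, pairing, dye orientation, probe choice, negative control limit and the pairs kept. The number of arrays limits the precision.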

Additional observations from a re-analysis of the deposited data

Results flagged for a closer look

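Levels were screened for a single follicle far from the other 3 of its phase, over 36 sets of 4 follicles covering levels and ratios of the 12 probes. Chance marks about 1 in 20 such sets, and 2 were marked.

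CYP17A1 in the atretic follicle of pair 1 was at 9.49, while the other 3 atretic follicles lay between 7.19 and 7.42. The gap was 0.90 of the whole range, above Dixon's 95% limit for 4 values. The same follicle was highest in DCN (11.44) and had the highest average of the steroidogenic genes (12.5). Its part in the mean ratio of CYP17A1 shows in the value without pair 1, -1.28 against -0.52.

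The NR2F2 probe EMBV3_27407 in the growing follicle of pair 4 was at 7.15, with the other 3 growing follicles between 7.02 and 7.03, a gap of 0.86 of the range. This level exceeded the negative controls on 0 of 2 arrays.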

How the results depend on the processing

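The count of members past an adjusted p of 0.05 was 0 in the main fit and under every alternative run. Past the study's threshold it was 0, and became 1 with the pair number as a replicate block (LUM, -1.21) and 3 without pair 1 (CYP17A1 at -1.28, LUM at -2.01, PTCH1 at 0.75), with a range of 0 to 3 over the pairs left out. The share of all probes past that threshold was 9.37% without pair 1 and 6.17% with the replicate block, against 3.51%. The matching share of genes by their brightest probe was computed for the main fit only (5.11%). Over all probes the count of 1275 became 2232 with the replicate block, 2238 with the 8 arrays taken as independent, 2565 on the arrays with atretic in Cy5 and 2188 on those with growing in Cy5, and ran from 781 to 3401 when a pair was left out. Past an adjusted p of 0.05, 21 probes were counted with the replicate block and 616 with independent arrays, against 0. The share of higher calls was 51.5%, and 72.8% with median centring, 42.2% with loess alone and 61.4% on the arrays with atretic in Cy5. Signs turned for DCN without pair 1 (-0.13), for INSL3 without pair 3 (0.036), for GLI1 on the arrays with growing in Cy5 (0.12) and without pair 4 (0.087), and for HHIP with array weights (0.016), on the arrays with atretic in Cy5 (0.11) and without pair 2 (0.10). The cause was not tested. Over the pairs left out, the ratio ran from -1.28 to -0.11 for CYP17A1, -2.01 to -0.40 for LUM, 0.25 to 0.75 for PTCH1, -0.13 to 0.81 for DCN, -0.73 to 0.036 for INSL3, -0.18 to 0.087 for GLI1 and -0.12 to 0.10 for HHIP. NR2F2 kept its sign in 20 of 20 alternatives, between -0.14 and -0.03. With a minimum intensity of 8, GLI1 and HHIP dropped out. Of 64 levels of a gene in a follicle, 47 exceeded the negative controls on both arrays.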
